A study of Canis lupus familiaris with 37 samples.

Results

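The genes described here are 206 canine genes that were expressed in every non-neoplastic lymph node and silent in every lymphoid cell line. They had at least 10 counts per 1e6 reads on genes (CPM) in all 4 control lymph nodes and less than 1 CPM in all 17 cell line samples. Of 32704 genes in the files, 9481 reached 10 CPM in all controls, and 209 of these stayed below 1 CPM in the lines. 3 of the 209 were left out because the study lists them among its non-coding genes, so that the members made up 2.17% of the genes expressed in all nodes. The levels in the controls and the lines chose the members and are therefore given as a description, without a test. No lymphoma entered the choice. How much of the control level each lymphoma kept is the question addressed here.

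The data are RNA sequencing read counts per Ensembl gene of 37 dog samples, made from poly-A RNA. The controls were 4 non-neoplastic lymph nodes. The primary tumors were 12 B-cell lymphomas, 3 intestinal lymphomas and 1 T-cell lymphoma, and they carried no treatment or genotype label. The study grouped the intestinal lymphomas, whose phenotype was uncertain by flow cytometry, with the T-cell lymphoma as probable T-cell lymphomas on the basis of these transcriptomes, so that this grouping is not independent of the counts. The lines were CLBL-1, CLBL-1M and GL-1, derived from B-cells, and CL-1 and OSW, derived from T-cells. CLBL-1M goes back to a tumor that CLBL-1 formed in a mouse, and both thus have 1 origin. Dog ages were not given in the labels. All 3 intestinal lymphomas bear the name of another organ than the control nodes, and organ and lymphoma type cannot be told apart.

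A lymph node holds lymphocytes within a scaffold of reticular stromal cells, extracellular matrix, blood and lymphatic vessels and resident macrophages and dendritic cells. A cultured lymphoid line is free of this scaffold, so that genes expressed in the node and silent in the lines can belong to such cells or to programs that normal lymphocytes use and cultured lymphoma cells do not. The counts are those of bulk samples, in which fewer cells of a type and less RNA per cell cannot be told apart. The files give Ensembl identifiers without gene names, and 212 symbols on 14 lists of cell type and tissue markers matched 0 identifiers. The labelled tissue was therefore not checked against markers by name. Functions are given only where the study's functional annotation lists a term for an identifier, which was the case for 70 of the 206 members (33.98%). That annotation lists only genes that the study called differentially expressed in these samples, and was used in shortened form, so that its terms are background and not independent evidence of a direction.

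The reads that fell on genes numbered 1962722 to 4863730 in a sample, and 3 counts corresponded to 0.617 to 1.53 CPM in a single sample. Reads on more than 1 gene made up 0.098 to 0.229% of reads in the lymphomas and controls 1 to 3, but 0.476% in control 4 and 0.363 to 0.549% in the lines. Reads outside genes made up 76.2 to 82.9% in the controls, with control 4 the highest. Their share was 70.0 to 76.1% in the B-cell lymphomas, 71.4 to 74.1% in the intestinal lymphomas and 72.9% in the T-cell lymphoma. In the lines it was 68.0 to 77.6%. The source name of control 4 is that of a T-cell line sample while its title is that of a control, and the flow cytometry field gives a lymphoma class for all 4 controls, which were taken as controls by their titles. For control 4, the level of the members is given below both with and without its own part in the choice.

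In the lines, the members were close to absent. Of the 49671827 reads that the 17 line samples had on genes, 487 fell on the members. 69 members had 0 reads in all 17 samples, which allows a level of up to 0.0604 CPM over the pooled lines, and 87 had 1 to 3 reads. The highest total of a member over all line samples was 17 reads, and no line sample held more than 3 reads of any member. In a single control, a member had a median of 94 reads and never fewer than 20. This limit covers counting error only.

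The members spanned a mean control level of 10.96 to 1040 CPM, with a median of 45.1 CPM. Near the thresholds, the member with the highest line value reached 0.930 CPM in a line and had at least 13.2 CPM in the controls, while the nearest gene outside had 1.01 CPM in a line and at least 105 CPM in the controls. At the control threshold, the lowest member had 10.04 CPM in its lowest control and the nearest gene outside had 9.997 CPM.

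The 4 nodes differed among themselves. The median over the members of the level relative to the mean control was 74.7% in control 1, 127% in control 2, 98.2% in control 3 and 79.4% in control 4. Control 2 held the highest of the 4 values for 108 members, control 3 for 41, control 4 for 32 and control 1 for 25. The highest control exceeded the lowest by a median of 2.79 times and by at least 10 times for 9 members. When the members were chosen with the 3 other controls only, the left-out control kept a median of 61.2% (control 1, 242 members), 132% (control 2, 221 members), 97.4% (control 3, 210 members) and 67.9% (control 4, 240 members). The highest lymphoma in these 4 choices kept 24.1%, and thus the median of each node lay above that of each lymphoma also when the node had no part in the choice.

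Lymphomas kept a small part of the control level of these genes. The median member stood at 9.12% ± 4.86 (SD, n = 12) of the mean control CPM in the B-cell lymphomas, at 6.77% ± 5.69 (SD, n = 3) in the intestinal lymphomas and at 9.84% in the T-cell lymphoma. Over all 9481 genes expressed in the nodes, the same median lay between 83.8 and 103% in the 16 lymphomas. The intestinal and T-cell lymphomas together kept 7.54% ± 4.89 (SD, n = 4), which differed from the B-cell lymphomas by less than 1 SD of either group.

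**Figure D1:**
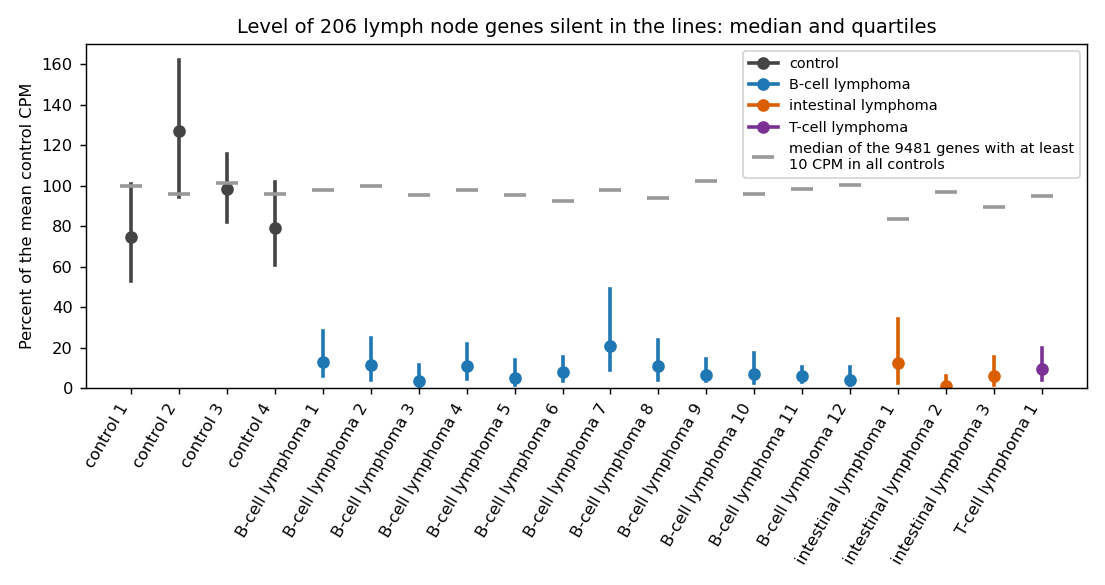
Level of the 206 members in each control and lymphoma, as percent of the mean control CPM. Points are medians over the members, lines span the quartiles over the members and grey marks are medians over the 9481 genes with at least 10 CPM in all controls. The medians of the lymphomas lie between 1.38 and 21.1%, and those of the controls between 74.7 and 127%.

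Within the B-cell lymphomas the median share varied from 3.74% in replicate 3 to 21.1% in replicate 7. Replicates 12 (4.16%), 5 (5.40%), 11 (6.06%), 9 (6.68%) and 10 (7.38%) lay in the lower part of this range. Replicates 6 (8.04%), 4 (10.9%), 8 (11.3%), 2 (11.5%) and 1 (13.1%) lay between these and replicate 7. Replicate 7 held the highest B-cell lymphoma value for 84 of the 206 members, followed by replicate 1 with 27. The lowest B-cell lymphoma value was most often that of replicate 3 (44 members) or 12 (37 members). Without replicate 7 the B-cell lymphoma mean was 8.03% ± 3.21 (SD, n = 11).

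The intestinal lymphomas spread as widely. The median share was 12.7% in intestinal lymphoma 1, 1.38% in intestinal lymphoma 2 and 6.21% in intestinal lymphoma 3. Intestinal lymphoma 2 was the lowest of the 16 lymphomas and had 0 reads for 62 members, against 14 and 28 in the other intestinal lymphomas, 3 in the T-cell lymphoma and 0 to 26 in the B-cell lymphomas. With counts thinned to 1962722 per sample, the means were 9.10% in the B-cell and 6.70% in the intestinal lymphomas. Controls 1 to 3 had a share of reads on more than 1 gene as low as that of the lymphomas. With these alone used both to choose the members (240) and as the control level, the B-cell lymphomas kept 8.11% ± 4.25 (SD, n = 12). The probable T-cell lymphomas then kept 6.63% ± 4.24 (SD, n = 4).

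The summed level of the members gave a different order, because it rests on few genes. It was 15962 to 28300 CPM in the controls and 1972 to 7629 CPM in the B-cell lymphomas. It came to 8863, 2169 and 5542 CPM in intestinal lymphomas 1, 2 and 3 and to 5657 CPM in the T-cell lymphoma. Hence intestinal lymphoma 1 kept 42.4% of the summed control level, the most of any lymphoma, and B-cell lymphoma 11 kept 9.44%, the least. The 3 most abundant members carried 13.7 to 18.6% of the sum in controls, 20.7 to 43.0% in B-cell lymphomas, 48.0 to 62.4% in intestinal lymphomas and 38.7% in the T-cell lymphoma. Without the 3 most abundant members of each sample, B-cell lymphoma 7 kept the most (33.5%), intestinal lymphoma 1 kept 26.3% and intestinal lymphoma 2 the least (6.03%).

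Detection followed neither order in full. At 1 CPM, B-cell lymphoma 11 with a median share of 6.06% held 164 members, and intestinal lymphoma 1 with 12.7% held 163. Between 127 and 194 members reached 1 CPM in a B-cell lymphoma, against 163, 92 and 140 in intestinal lymphomas 1 to 3 and 179 in the T-cell lymphoma. At 10 CPM, the level that each member reached in each node, these numbers were 38 to 95, then 74, 34 and 51, and 65. Reads of 140 members were found in each of the 12 B-cell lymphomas and of 101 members in each of the 16 lymphomas. No member was without reads in all 12 B-cell lymphomas, and 4 members had 0 reads in all 3 intestinal lymphomas, which allows a level of up to 0.358 CPM over these 3 samples.

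The share kept varied widely over the members. For each member, the median of its shares over the samples of a group was taken. This is called the median lymphoma or median sample of the group and is not a single tumor. In the median B-cell lymphoma the share kept ranged from 0.282 to 239%, with quartiles at 4.43 and 16.8%. 127 members were below 10% of the control level, 14 kept at least 50% and 2 at least 100%. In the median probable T-cell lymphoma 124 members were below 10%, 13 kept at least 50% and 6 at least 100%, and the share ranged from 0 to 517%. The T-cell lymphoma alone held 13 members at or above the mean control level.

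138 of the 206 members (66.99%) were below the lowest control in each of the 12 B-cell lymphomas, where 12.7% of all 15162 genes tested were. 155 members (75.2%) were below the lowest control in each of the 4 probable T-cell lymphomas, where the share of all genes tested was 16%. Because the rule asks for a high level in each control, these counts describe the members and carry no test. 111 members were below each node in all 16 lymphomas and 24 had lymphomas of both groups within or above the control range. Among the 9481 genes expressed in all nodes, these counts were 558 and 7427. No member was above the highest control in all samples of either group, against 5.09% of genes tested for the B-cell and 8.77% for the probable T-cell lymphomas. At least 1 B-cell lymphoma exceeded the highest control for 24 members, and at least 1 probable T-cell lymphoma did for 28. For 159 members no lymphoma did. For any member, at most 8 of the 12 B-cell and 3 of the 4 probable T-cell lymphomas were above the highest control. Counts of single lymphomas above the controls were not made over all genes, so that they describe the members only.

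The level in the lines and the level in the lymphomas were related across genes. Among the genes expressed in all nodes, the 209 that were below 1 CPM in the lines kept a mean of 9.08% in the B-cell and 7.38% in the probable T-cell lymphomas. The 330 genes whose highest line value lay between 1 and 10 CPM kept 16.1 and 12.8%. The 4618 genes between 10 and 100 CPM kept 91.5 and 85.4%, and the 4324 genes at 100 CPM or more kept 111 and 106%. All samples share the same controls in this comparison, and genes are not independent replicates.

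**Figure D2:**
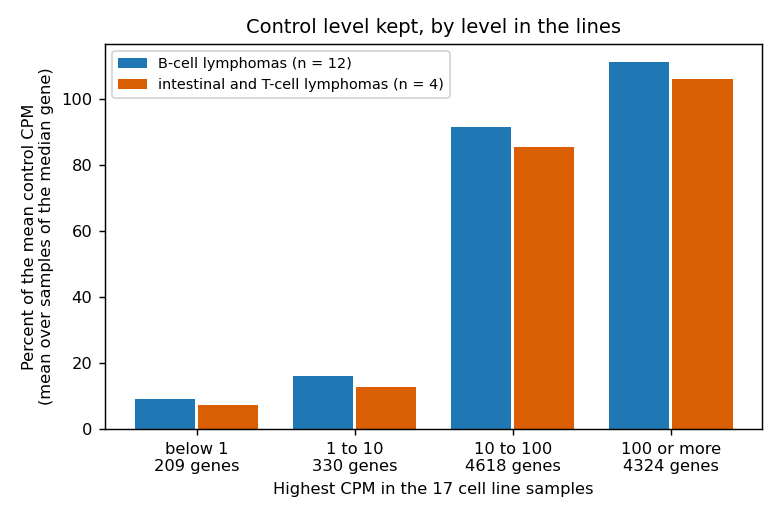
Control level kept by genes with at least 10 CPM in all controls, grouped by their highest CPM in the 17 line samples. Bars start at 0 and give the mean over samples of the median gene in the 12 B-cell lymphomas and in the 3 intestinal and 1 T-cell lymphomas. The lowest group (209 genes, the members with the 3 left out) stands at 9.08 and 7.38%.

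Immune response and defence terms were listed for 30 of the 70 members with a term, where a member can be in several classes. It is also the class with the most identifiers in the annotation (403, against 57 to 147 in the other classes), so that its size says nothing about the members. In the median sample of each group these 30 kept 9.39% in the B-cell and 11.2% in the probable T-cell lymphomas. 18 of them were below each control in all 12 B-cell lymphomas and 23 in all 4 probable T-cell lymphomas. Here and in the classes below, such counts stand beside 66.99 and 75.2% of all members. Over all genes tested the shares were 12.7 and 16%. Differences of a class from all members were not tested. B-cell lymphoma 7 kept 43.3% of this class, against 9.15% in B-cell lymphoma 1 and 5.26% in B-cell lymphoma 3. The T-cell lymphoma and intestinal lymphoma 1 kept 12.2% each, intestinal lymphoma 3 kept 9.21% and intestinal lymphoma 2 kept 1.51%.

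ENSCAFG00000008404, annotated with extracellular matrix, leukocyte proliferation and tumor necrosis factor production, was the most abundant member. It stood at 986, 1235, 1171 and 766 CPM in controls 1 to 4, at 60.3, 16.5 and 208 CPM in intestinal lymphomas 1 to 3, at 286 CPM in the T-cell lymphoma, and at 169 to 863 CPM in the B-cell lymphomas (median 453). Only 3 of the 12 B-cell lymphomas reached the lowest control, and no probable T-cell lymphoma did. It was among the better kept members in B-cell lymphomas, with 43.6% of the control level in the median sample, and it was the most abundant member in 7 of the 12.

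Among the 8 most abundant members, 3 carried the KEGG term Staphylococcus aureus infection, a pathway that groups complement, Fc receptor and MHC class II genes. ENSCAFG00000014346 stood at 1006, 816, 981 and 680 CPM in the controls, at 28.3 to 328 CPM in the B-cell lymphomas (median 80.7), at 192, 1.79 and 38.6 CPM in the intestinal lymphomas and at 91.4 CPM in the T-cell lymphoma. ENSCAFG00000014220 stood at 646, 807, 796 and 519 CPM in the controls, at 20.2 to 363 CPM in the B-cell lymphomas (median 61.0), at 127, 3.12 and 31.4 CPM in the intestinal lymphomas and at 87.7 CPM in the T-cell lymphoma. Both were below each control in all 16 lymphomas, were highest among the B-cell lymphomas in replicate 7, and were lowest of all in intestinal lymphoma 2. ENSCAFG00000014639 behaved otherwise, with 313, 947, 665 and 422 CPM in the controls and 50.02 to 694 CPM in the B-cell lymphomas (median 153), of which replicate 3 was the highest. In the intestinal lymphomas it stood at 34.2, 54.9 and 231 CPM and in the T-cell lymphoma at 191 CPM. Thus the B-cell lymphoma with the lowest median share held this gene within the control range.

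ENSCAFG00000018608, annotated only with immune response, had 679, 1051, 501 and 398 CPM in the controls. It was at 9.03 to 112 CPM in the B-cell lymphomas (median 29.0), at 18.4, 1.79 and 4.04 CPM in the intestinal lymphomas and at 48.7 CPM in the T-cell lymphoma, so that no lymphoma overlapped the controls. ENSCAFG00000020004, an immunoglobulin domain gene of the NF-kappa B pathway term, had 636, 698, 723 and 408 CPM in the controls and 45.4 to 474 CPM in the B-cell lymphomas (median 218). It was at 64.4, 8.03 and 34.1 CPM in the intestinal lymphomas and at 164 CPM in the T-cell lymphoma. 3 B-cell lymphomas and no probable T-cell lymphoma reached its lowest control.

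Members with terms of the extracellular matrix and matrix binding had a lower median share in the B-cell lymphomas than the immune class, a difference that was not tested. The 25 of them kept 5.90% in the median B-cell and 6.16% in the median probable T-cell lymphoma, and 22 and 19 were below each control in all samples of the group. Intestinal lymphoma 1 kept 27.2% of this class and had 7 of its 25 members at 50% or more, against 0.913% in intestinal lymphoma 2, 6.26% in intestinal lymphoma 3 and 7.37% in the T-cell lymphoma. B-cell lymphoma 7 kept 11.9%. These differences between single samples carry no test.

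ENSCAFG00000002753, with heparin binding and cell adhesion terms, showed how unequal the nodes were, with 18.7, 1731, 166 and 31.3 CPM in controls 1 to 4. It stood at 11.98 to 440 CPM in the B-cell lymphomas (median 44.7), at 201, 8.48 and 1.79 CPM in the intestinal lymphomas and at 41.0 CPM in the T-cell lymphoma. 10 of 12 B-cell and 2 of 4 probable T-cell lymphomas lay within the control range. ENSCAFG00000020110, with the terms extracellular matrix and platelet-derived growth factor receptor signaling, had 71.2, 194, 36.3 and 44.8 CPM in the controls, 1.56 to 8.62 CPM in the B-cell lymphomas (median 3.69), 6.39, 1.34 and 11.7 CPM in the intestinal lymphomas and 6.02 CPM in the T-cell lymphoma. Each lymphoma was below each control.

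Vessel and endothelium terms were listed for 14 members, which kept 9.13% in the median B-cell and 10.9% in the median probable T-cell lymphoma. 13 and 11 of the 14 were below each control throughout the group. Again intestinal lymphoma 1 (27.7%) and B-cell lymphoma 7 (25.6%) were high, and intestinal lymphoma 2 (0.383%) was low. ENSCAFG00000008692, with the terms heparin binding and negative regulation of endothelial cell migration, had 1207, 610, 985 and 678 CPM in the controls, 31.7 to 343 CPM in the B-cell lymphomas (median 145), 0.255, 2.68 and 16.2 CPM in the intestinal lymphomas and 18.6 CPM in the T-cell lymphoma. All 16 lymphomas were below the controls, and the 4 probable T-cell lymphomas were also below all 12 B-cell lymphomas.

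ENSCAFG00000002420, annotated with angiogenesis, stood at 37.9, 131, 151 and 70.0 CPM in the controls and at 1.23 to 21.0 CPM in the B-cell lymphomas (median 8.57). It was at 4.85, 0.446 and 33.2 CPM in the intestinal lymphomas and at 18.6 CPM in the T-cell lymphoma, below each control in every case. ENSCAFG00000006142, with terms of extracellular matrix binding and negative regulation of angiogenesis, had 111, 102, 86.0 and 34.8 CPM in the controls. It was near 0 in the B-cell lymphomas (0 to 7.05 CPM, median 0.318), in intestinal lymphomas 2 and 3 (0 and 1.35 CPM) and in the T-cell lymphoma (0.287 CPM). Intestinal lymphoma 1 stood alone at 104 CPM, within the control range.

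Chemotaxis and cell migration terms marked 15 members, with 9.57% kept in the median B-cell and 5.21% in the median probable T-cell lymphoma, and 12 and 13 below each control throughout. ENSCAFG00000005187, annotated among others with cell chemotaxis and migration, had 103, 173, 120 and 50.9 CPM in the controls and 2.06 to 24.0 CPM in the B-cell lymphomas (median 6.10). It had 9.71, 0.446 and 1.35 CPM in the intestinal lymphomas and 4.01 CPM in the T-cell lymphoma, and no lymphoma overlapped the controls.

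Receptor tyrosine kinase and growth factor signaling was the smallest class (6 members), with 4.39% kept in the median B-cell and 6.53% in the median probable T-cell lymphoma. ENSCAFG00000005288, a tyrosine-protein kinase with an immunoglobulin domain, had 24.6, 94.3, 44.5 and 41.7 CPM in the controls, 0.411 to 5.76 CPM in the B-cell lymphomas (median 2.32), 5.36, 0.446 and 4.49 CPM in the intestinal lymphomas and 0.860 CPM in the T-cell lymphoma. ENSCAFG00000014923, with heparin binding and PI3K-Akt terms, had 25.6, 82.5, 37.6 and 22.2 CPM in the controls, 0.411 to 12.9 CPM in the B-cell lymphomas (median 1.23), 4.34, 0 and 1.79 CPM in the intestinal lymphomas and 3.15 CPM in the T-cell lymphoma. Both were below each control in all 16 lymphomas, and control 2 was the highest node for both.

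The 136 members without a listed term kept 7.96% in the median B-cell and 7.46% in the median probable T-cell lymphoma, near the 9.03 and 7.92% of the 70 with one. All 5 members that kept the most in the median B-cell lymphoma were without a term, with shares of 81.1 to 239%. The highest share, 239%, was that of a member at 38.6% in the median probable T-cell lymphoma. The next, 158%, was that of a member at 34.3% there. Of the 5, ENSCAFG00000008316 (96.5%) had 38.3, 42.3, 52.1 and 14.3 CPM in the controls. It stood at 0.392 to 128 CPM in the B-cell lymphomas (median 35.5), of which 4 exceeded the highest control. Replicates 7 and 11 were near 0 for this gene, at 0.411 and 0.392 CPM. It was also near 0 in the probable T-cell lymphomas, with 0.255, 0 and 0 CPM in the intestinal and 0.287 CPM in the T-cell lymphoma.

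Among the least kept, ENSCAFG00000009884, annotated with wound healing, had 107, 730, 114 and 42.2 CPM in the controls. It was at 0 to 4.21 CPM in the B-cell lymphomas (median 0.700), at 0.511, 3.12 and 2.24 CPM in the intestinal lymphomas and at 0.287 CPM in the T-cell lymphoma, so that each lymphoma was below each control by a wide margin. ENSCAFG00000010626, with terms of negative regulation of signal transduction, had 11.4, 29.0, 16.5 and 12.6 CPM in the controls, 0 to 3.06 CPM in the B-cell lymphomas (median 0.783) and 2.58 CPM in the T-cell lymphoma. It had 0 reads in all 3 intestinal lymphomas. ENSCAFG00000032078, without a term, was variable even in the nodes, with 23.3, 1271, 1635 and 127 CPM. It was below 12 CPM in 9 of the 12 B-cell lymphomas and reached 830 CPM in replicate 10, while the intestinal lymphomas had 4.60, 11.2 and 3.14 CPM and the T-cell lymphoma 13.5 CPM.

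**Figure D3:**
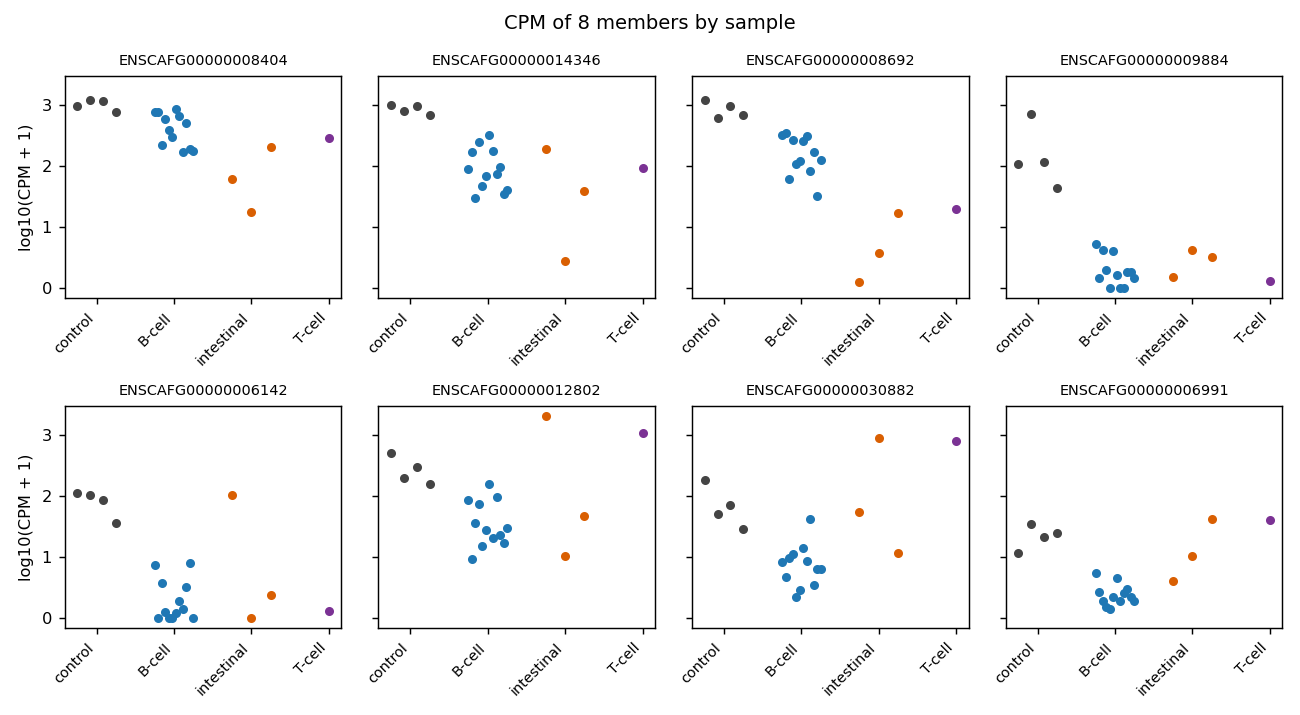
Level of 8 members in each sample, as log10(CPM + 1), for the 4 controls, 12 B-cell lymphomas, 3 intestinal lymphomas and the T-cell lymphoma. Each point is a sample, and the upper row holds members that lie below the controls in most lymphomas. In the lower row single intestinal lymphomas or the T-cell lymphoma reach or pass the controls, as intestinal lymphoma 1 does at 104 CPM for ENSCAFG00000006142.

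The comparison of the probable T-cell with the B-cell lymphomas did not enter the choice of the members and was tested on all 15162 genes with edgeR. The spread was estimated over all 37 samples, with the replicates of the cell lines, and is not the spread over the tumors alone. At the study's threshold of an adjusted p-value of 1e-05, 3 members were higher and 0 lower in the probable T-cell lymphomas, where 3.11% of all genes were higher and 1.06% lower. The number of members higher was 1 without any single control (2.8 to 2.88% of all genes higher) and 8 without intestinal lymphoma 2 (3.14%). With only the 16 lymphomas fitted, 0 of 175 members tested were higher and 0 lower, against 0.241 and 0.203% of all genes. At an adjusted p-value of 0.05, 38 members were higher and 19 lower by the edgeR test, against backgrounds of 19.5 and 11.5%. 78 members had an unadjusted edgeR p-value below 0.05, as had 40.8% of all genes. The DESeq2 Wald test called 6 members higher and 3 lower at 1e-05, with 4.27% of all genes higher and 2.33% lower. The share of members called was near or below that of all genes in each of these counts. The median log2 fold-change of the members was -0.09, with 107 of 206 below 0, and that of all genes was 0.05. The median of the members was -0.62 without intestinal lymphoma 1 and 0.21 without intestinal lymphoma 2, so that its sign depended on single samples.

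**Figure D4:**
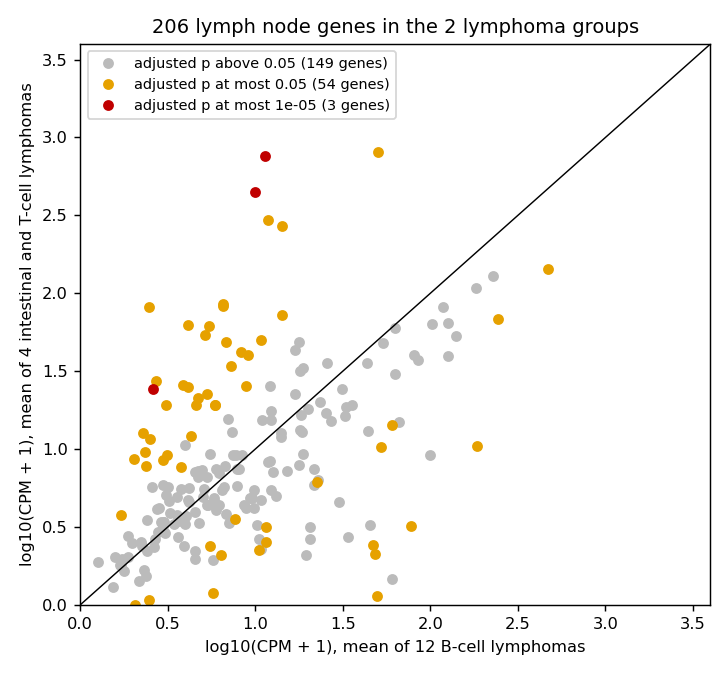
Mean level of each member in the 12 B-cell lymphomas (horizontal) and in the 3 intestinal and 1 T-cell lymphomas (vertical), both as log10(CPM + 1). The line marks equal levels, red points the 3 members at an adjusted p-value of at most 1e-05 and yellow points the 54 further members at 0.05, by the edgeR test. Most members (149) are grey and lie on both sides of the line.

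ENSCAFG00000030882, without a term, was the member with the strongest call. It had 54.7, 901 and 10.8 CPM in the intestinal lymphomas, 811 CPM in the T-cell lymphoma and 1.23 to 40.7 CPM in the B-cell lymphomas (median 6.37), against 184, 50.4, 71.8 and 27.8 CPM in the controls. Its log2 fold-change was 5.66 (SE 0.66, edgeR adjusted p = 1.67e-07), and it was called in 15 of 17 other settings. With only the 16 lymphomas fitted it was not called. Intestinal lymphoma 3 was within the range of the B-cell lymphomas, and intestinal lymphoma 2 and the T-cell lymphoma exceeded each node.

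ENSCAFG00000006991, annotated with small GTPase mediated signal transduction, had 3.07, 9.37 and 40.8 CPM in the intestinal lymphomas, 39.3 CPM in the T-cell lymphoma and 0.411 to 4.59 CPM in the B-cell lymphomas (median 1.20), where the controls had 10.5, 33.6, 20.1 and 23.5 CPM. Its log2 fold-change was 3.80 (SE 0.52, edgeR adjusted p = 7.73e-06). It was called in 7 of 17 other settings, with an adjusted p of up to 0.0312, while its log2 fold-change stayed between 3.40 and 4.16. Thus the direction was kept, but the call at 1e-05 was not.

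ENSCAFG00000029153, without a term, rested on 1 tumor. It had 3012 CPM in intestinal lymphoma 3, but 10.2 and 2.68 CPM in the other intestinal lymphomas, 8.88 CPM in the T-cell lymphoma, 3.16 to 19.5 CPM in the B-cell lymphomas (median 10.7) and 99.9, 125, 141 and 105 CPM in the controls. The fitted log2 fold-change of 6.16 (SE 0.87, edgeR adjusted p = 6.85e-06) became -0.42 (adjusted p = 0.554) without that sample. In intestinal lymphoma 3 this gene made up 54.4% of the summed member level.

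Some members that exceeded the controls in part of the probable T-cell lymphomas, and were below them in others, passed an adjusted p-value of 0.05 but not 1e-05. ENSCAFG00000012802, annotated with T cell activation and leukocyte cell-cell adhesion, had 2078, 9.37 and 46.2 CPM in the intestinal lymphomas, 1095 CPM in the T-cell lymphoma and 8.42 to 159 CPM in the B-cell lymphomas (median 27.9), against 518, 201, 303 and 157 CPM in the controls. Its log2 fold-change was 4.13 (SE 0.77, edgeR adjusted p = 0.000291). Intestinal lymphoma 1 and the T-cell lymphoma exceeded all nodes, in both it was the most abundant member, and intestinal lymphomas 2 and 3 were within the range of the B-cell lymphomas.

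ENSCAFG00000011705, with the terms cell-cell adherens junction and regulation of innate immune response, had 0, 59.8 and 8.52 CPM in the intestinal lymphomas, 173 CPM in the T-cell lymphoma, 0.411 to 17.9 CPM in the B-cell lymphomas (median 3.11) and 46.1, 19.9, 24.1 and 28.7 CPM in the controls. The edgeR log2 fold-change was 3.74 (SE 0.69, adjusted p = 0.000123). ENSCAFG00000029673, with terms of regulation of biosynthesis and RNA metabolism, was above the highest node in 3 of 4 probable T-cell lymphomas, as no other member was. It had 38.6, 46.9 and 3.59 CPM in the intestinal lymphomas, 107 CPM in the T-cell lymphoma, 2.06 to 31.1 CPM in the B-cell lymphomas (median 8.94) and 33.3, 33.6, 34.6 and 26.1 CPM in the controls, with a log2 fold-change of 2.37 (SE 0.52, edgeR adjusted p = 0.000988).

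In the other direction, 4 of the members described above passed 0.05 but not 1e-05. ENSCAFG00000008316 had 2 reads over the 4 probable T-cell and 1805 over the 12 B-cell lymphomas, a ratio of pooled levels of 283 (95% exact interval 78.2 to 2337, counting error only), with an edgeR adjusted p of 2.47e-05. The log2 fold-change of ENSCAFG00000008692 was -4.27 (SE 0.76, edgeR adjusted p = 0.000184), that of ENSCAFG00000020004 was -1.78 (adjusted p = 0.0303) and that of ENSCAFG00000008404 was -1.70 (adjusted p = 0.0163). For ENSCAFG00000014346, ENSCAFG00000014220 and ENSCAFG00000014639, the members with the Staphylococcus aureus infection term, the log2 fold-changes were -0.43, -0.62 and -0.82 with edgeR adjusted p-values of 0.612, 0.458 and 0.248.

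By class, no member with immune, matrix, vessel, chemotaxis or growth factor terms passed 1e-05 in either direction by the edgeR test. At 0.05, where 19.5% of all genes were higher and 11.5% lower, 7 of the 25 matrix members were higher and 3 lower in the probable T-cell lymphomas, 4 and 3 of the 30 immune members, 2 and 1 of the 14 vessel members, 1 and 2 of the 15 chemotaxis members, and 0 and 0 of the 6 growth factor members. The median log2 fold-change was 0.78 for the matrix class, 0.42 for the vessel class, 0.43 for the growth factor class, -0.06 for the chemotaxis class and -0.29 for the immune class. In the matrix and vessel classes intestinal lymphoma 1 held the highest share of the 4 probable T-cell lymphomas, and its part in these medians was not tested.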

How the data were processed

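Poly-A RNA was sequenced as 100-bp paired-end reads. The authors mapped reads to CanFam3.1 with BWA, removed duplicates and poor mappings with Picard and SAMtools, and counted reads on Ensembl genes with HTSeq 0.6.1. The files as deposited hold unnormalized counts of reads, 1 value for each gene in a sample. Strandedness of the counting is not given in the sources used here. Reads on more than 1 gene are in no gene's count, so that overlapping genes are undercounted.

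Samples were grouped by title. The flow cytometry field, which disagrees with the titles for many samples and all 4 controls, was not used. The 16 lymphomas came from as many dogs. The sources used here do not give the origin of the control nodes by dog. Within groups, the closest pair of samples had a chi-square per degree of freedom of 1.35 in CLBL-1 and of at least 2.59 elsewhere (1 is sampling noise).

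CPM was the count over the reads on genes. The share kept is CPM over the mean control CPM, and its controls took part in the choice of members, so that it was not tested. Members, lists and term classes were chosen with earlier results of these data known. For the contrast of lymphomas, edgeR 4.0.16 (R 4.3.3; TMM, quasi-likelihood test) was fitted to 37 samples in 8 groups. The 15162 genes whose highest CPM exceeded the 40th percentile were tested, with Benjamini-Hochberg adjustment. DESeq2 1.42.0 was an alternative. SE is the absolute log2 fold-change over the square root of F. It rests on the spread over all 37 samples, as do the adjusted p-values of this fit. On simulated counts of this contrast (15162 genes), 75% of genes changed by 3 on the log2 scale were recovered at 1e-05, and 25% of those changed by 1.5. Before the change, a simulated gene had the same mean in all 8 groups, with the spread of the 37-sample fit. The members are near 0 in the lines, so that these rates do not give the recovery for them.

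Named members were the 10 with the highest control level, the 5 most and 5 least kept in each lymphoma group and all called members. The genes nearest to the thresholds are given by value only. The 3 most abundant members of each term class were added after seeing the data. Of these 37 (the nearest to the thresholds not counted), the 20 with a listed term and 4 others are printed by identifier. No marker symbol could be matched, and no sequences or coordinates were used here.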

Additional observations from a re-analysis of the deposited data

Results flagged for a closer look

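Of 52 groups of 4 samples or more tested among the members described, 6 held a sample whose gap to the nearest other sample exceeded Dixon's critical value (0.829 for 4 samples). Chance alone flags some groups at this level, about 1 in 20.

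In the controls, control 2 stood apart for ENSCAFG00000009884, the member with a wound healing term, at 730 CPM against 42.2 to 114 CPM in the other nodes. It also stood apart for ENSCAFG00000002753, with heparin binding and cell adhesion terms, at 1731 CPM against 18.7 to 166 CPM. Control 4 was lower than the other nodes for ENSCAFG00000029673, at 26.1 CPM against 33.3 to 34.6 CPM.

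In the probable T-cell lymphomas, intestinal lymphoma 3 held 3012 CPM of ENSCAFG00000029153 and the others 2.68 to 10.2 CPM. Intestinal lymphoma 1 held 103.7 CPM of ENSCAFG00000006142, with matrix binding and angiogenesis terms, and the others 0 to 1.35 CPM. The T-cell lymphoma held 2.58 CPM of ENSCAFG00000010626, and the 3 intestinal lymphomas had 0 reads of it. With 3 values at 0 the rule flags any level above 0 in the remaining sample. This member was also named for its low share in this group, so that the chance rate given above does not apply to it.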

How the results depend on the processing

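The mean share kept moved by less than 1 SD, and the number of members below all controls by less than 1.5 times, under the alternatives run. The SD of the share over B-cell lymphomas fell from 4.86 to 3.21 without replicate 7. The number of members was 335 with at least 5 CPM in the controls and 116 with at least 20 CPM, and ranged from 210 to 242 without single controls. Without single lines it ranged from 212 to 305, the most without OSW.

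For the contrast of lymphomas, the edgeR number of members higher was 6 without a filter on low counts (2.01% of all genes) and 5 with intestinal lymphomas only (2.95%). It was 0 when only the 16 lymphomas were fitted (0.241%). In that fit 175 members were tested and 62 had an unadjusted edgeR p below 0.05, as had 34.6% of all genes. The DESeq2 Wald test gave 6 higher and 3 lower (4.27 and 2.33% of all genes), and a threshold of 0.05 gave 38 and 19 (19.5 and 11.5%). Leaving out single samples gave 1 to 8 members higher and 0 to 1 lower. The number higher was 1 without any 1 control (2.8 to 2.88% of all genes higher) and 6 without intestinal lymphoma 1 (2.91%). It was 8 without intestinal lymphoma 2 (3.14%) and 5 without the T-cell lymphoma (2.88%). Without B-cell lymphoma 7, a setting added after seeing the data, 1 member was lower (1.04% of all genes lower). ENSCAFG00000029153 had a log2 fold-change of -0.42 without intestinal lymphoma 3 and of 6.57 without intestinal lymphoma 2. The cause was not tested.

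With the replicate number as a block, 0 members were higher and 1 lower (0.198 and 0.475% of all genes), with 51 at an unadjusted edgeR p below 0.05 (32.4% of all genes). Same-numbered B-cell and probable T-cell lymphomas shared no deviations (mean r = -0.004, from -0.153 to 0.103, n = 4 pairs), so that the numbers do not pair samples. Values of single samples near 1 CPM rest on about 3 counts.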
